A study of Mus musculus with 13 samples.

Results

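The transcriptome described here is that of gamma delta intraepithelial lymphocytes of the mouse small intestine before any interferon and without an antibody against their T cell receptor (TCR). It rests on the 3 IgG-PBS libraries among the 13 bulk RNA libraries of the series, chosen by their sample titles, with genes ranked by mean level and no comparison fitted. The mice were wild type (WT), and they were not untouched. They had received 200 µg of Armenian hamster IgG intraperitoneally, given by one source text as 48 and 24 hours ahead of isolating the lymphocytes and by another as 48 or 24 hours ahead of the infusion, and PBS intravenously 5 hours ahead of isolation. The other 10 libraries came from IgG-IFNa (4), UC7-PBS (3) and UC7-IFNa mice (3), which received interferon alpha (IFNa, 1 µg), the antibody UC7-13D5 in place of IgG, or both. The sources used here do not state strain, age, sex or how many mice a library holds. The replicates are called biological in the labels, so the errors below are the spread between those samples.

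Gamma delta intraepithelial lymphocytes are T cells that sit between the absorptive cells of the gut lining. Their receptor pairs a gamma with a delta chain, many carry the CD8 alpha chain as a homodimer without CD8 beta, and the integrin CD103, encoded by Itgae with Itgb7, binds E-cadherin on the epithelium. They are known for storing granzymes in a ready state while circulating freely neither through blood nor lymph.

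Library totals were 25808105, 24243111 and 26183710 estimated counts, within the range of 19867201 to 26895876 of the whole series. Levels are on the counts-per-million scale (CPM), the estimated count of a gene scaled to its library total. A gene was called expressed at a mean of at least 1 CPM, which 12893 of 21084 genes (61.2%) reached, and 8941 reached 10, 2179 reached 100, 91 reached 1000 and 3 reached 10000 CPM. Every count of expressed list members below is to be read beside that 61.2%. The lists were chosen with earlier results known, so such counts are no finding about their members. A count of 0 allows up to 3 counts of the total, or 0.115 to 0.124 CPM in these libraries. Such floors cover counting error only, since reads amplified without molecular identifiers are not independent molecules. Lists are given in order of CPM, which also counts a gene's length, and one gene is said to exceed another only in CPM per kilobase of merged exons. Log2 CPM of expressed genes correlated across genes at 0.983 to 0.985 between pairs of these libraries, as a description. The median coefficient of variation (SD over mean, n = 3) was 13.5%, with quartiles of 8.05% and 21.9%. All 3 libraries carried Xist, the RNA of the inactive X chromosome, at 265 to 345 CPM, and at most 0.310 CPM of Y-linked transcripts, whereas the other 10 ranged from 0.0615 to 215 CPM and from 1.67 to 329 CPM. The levels below are therefore those of female cells by these transcripts, and sex and treatment cannot be told apart where they coincide across the series.

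The 6 genes that mark these cells were present in every library at high rank. Gzma (ENSMUSG00000023132, mm39 chromosome 13, 113230359 to 113237515), the protease granzyme A, held 23264, 28418 and 22887 CPM and was the leading gene of each of the 3 libraries. Gzmb (ENSMUSG00000015437, chromosome 14, 56496295 to 56499717), granzyme B, held 10863, 11367 and 10692 CPM and came next in each. Granzymes are proteases that trigger death once delivered into a target cell. Cd8a (ENSMUSG00000053977, chromosome 6, 71350411 to 71356157) averaged 1991 ± 284 CPM (SD, n = 3, as throughout) at rank 33. Itgae (ENSMUSG00000005947, chromosome 11, 72981409 to 73038272) averaged 1727 ± 140 CPM at rank 40. Both are surface proteins by which these cells are recognised. Trgc1 (ENSMUSG00000076749, chromosome 13, 19398273 to 19401194), a gamma constant region, averaged 1455 ± 268 CPM at rank 52, and Trdc (ENSMUSG00000104876, chromosome 14, 54380308 to 54386325), the delta constant region, 187 ± 23.9 CPM at rank 935. Summed, the 6 averaged 41191 CPM, of which Gzma made 24856 and Gzmb 10974 CPM, and granzymes are made by other killer cells too. In IgG-PBS libraries Gzma ranged from 22887 to 28418 CPM and in the other 10 libraries from 25892 to 40986 CPM, Trdc from 163 to 211 and from 167 to 211 CPM, and Itgae from 1566 to 1816 and from 760 to 2160 CPM, and none of these differences was tested.

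The leading genes were a mixture of effector, antigen presentation and housekeeping transcripts. The 10 leading genes of each library took 9.53% ± 0.643 of its counts, its leading 100 took 24.5% ± 0.361 and its leading 1000 took 54.9% ± 0.470. The genes named next lead by the mean of the 3 libraries. The leading 10 also held H2-D1, a class I heavy chain, at 10231 ± 1234 CPM, the ubiquitin gene Ubb at 9962 ± 1514, Rgs1 at 9427 ± 1046, the chemokine gene Ccl5 at 7478 ± 566, the actin-binding Tmsb4x at 6374 ± 736, Cd7 at 4954 ± 346 and H2-K1 at 4194 ± 139 CPM. H2-D1, Ubb and Rgs1 changed places from library to library. The remaining 20 of the leading 30 ran from Junb, an AP-1 subunit, at 4137 ± 264 CPM to H2-Q7 at 2066 ± 49.3 CPM. Between them were Actb, Actg1, Eef1a1, Nkg7, Lars2, B2m, Malat1, Hspa8, H3f3b, Cd3g, AW112010, Hspa1b, Itm2b, Tnfaip3, Btg1, Btg2, mt-Co1 and the ribosomal RNA gene Rn18s. Per kilobase 19 of the 30 stayed among the leading 30, and the order at the top became Gzma with 24708 ± 3072, Ccl5 with 14057 ± 1063, Gzmb with 7642 ± 244, Ubb with 6646 ± 1010 and Cd7 with 5045 ± 352 CPM per kilobase. Ccl5 thus passed Gzmb once length was taken into account. Of the 30, the mitochondrial mt-Co1 (3040, 3058 and 5592 CPM), Lars2 (2443, 2960 and 4682 CPM) and Rn18s (1394, 1818 and 3326 CPM) were all highest in library 3. H2-D1, H2-K1 and H2-Q7, and Hspa1a and Hspa1b, are close copies among which reads can be split, so their separate levels are uncertain.

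**Figure D1:**
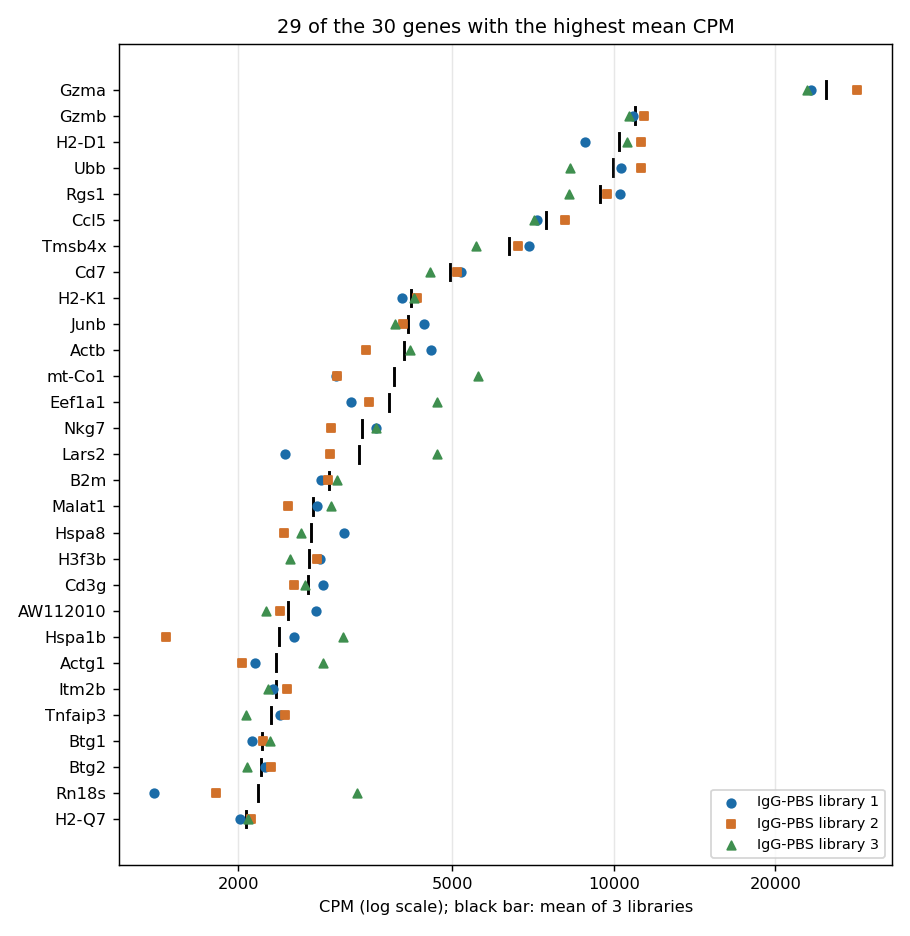
Level of 29 of the 30 genes with the highest mean in the IgG-PBS libraries, in CPM on a log scale; points are the 3 libraries and black bars their means. Gzma stands apart at 22887 to 28418 CPM, and mt-Co1, Lars2 and Rn18s have their highest point in library 3.

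The gamma chain constant regions fell into an order. Trgc1 held 1760, 1256 and 1349 CPM, Trgc2 949, 980 and 937 CPM and Trgc4 617, 514 and 597 CPM in libraries 1 to 3. Trgc3 stood at 10.4, 3.76 and 4.40 CPM. Per kilobase the 3 values of Trgc1 lay above those of Trgc2, and those of Trgc2 above those of Trgc4. The copies share sequence, and reads between them may be split. Among the variable segments, Trgv7, which is joined in the intestinal gamma delta cells of the mouse, had 326, 247 and 230 CPM. Trgv2 had 240, 240 and 205 CPM, Trgv4 78.0, 53.3 and 54.6 CPM and Trgv1 43.9, 35.8 and 49.3 CPM. In CPM per kilobase Trgv7 (727 ± 140) lay above Trgv2 (465 ± 41.8) in all values, and Trgv2 above Trgv4 (145 ± 32.7), whereas Trgv4 and Trgv1 (115 ± 18.1) overlapped. Trgv3 (4.76 CPM), Trgv6 (2.45) and Trgv5 (1.20), the last being the segment of epidermal gamma delta cells, were at most at 8.37 CPM in any library. In the mouse locus Trgv7 and Trgv4 join to Trgc1, Trgv2 to Trgc2, Trgv1 to Trgc4 and Trgv3 to Trgc3. Trgv7 lay above Trgv2 per kilobase, and Trgv2 above Trgv1. Their constant regions Trgc1, Trgc2 and Trgc4 stood in the same order. Trgv4, which shares Trgc1 with Trgv7, lay below Trgv2. Counts on delta segments were low. The 5 Trdv genes summed to 15.9 ± 3.59 CPM and the 8 Trav genes that also carry a delta name to 21.3 ± 5.26 CPM. The 7 Trgv genes summed to 609 ± 79.7 CPM, and none of these sums is scaled to length. Reads may be split between the Trav15 copies, and of 23 listed gamma and delta segments 20 were analysed. How much delta chain RNA these counts miss was not tested. Trdv2-2 (8.24 ± 1.54 CPM) and Trav15d-1-dv6d-1 (8.04 ± 1.55 CPM) led the delta segments, with overlapping values per kilobase. Of the 20 gamma and delta segments analysed here, 15 (75%) were expressed, beside 61.2% of all genes, and these lists were chosen with such results known.

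TCR beta and alpha constant regions were present as well. Trbc2 held 805, 815 and 598 CPM, Trbc1 741, 811 and 587 CPM and Trac 257, 173 and 191 CPM, whereas the 23 Trbv segments summed to 111 ± 23.1 CPM and the 36 Trav segments without a delta name to 17.5 ± 1.64 CPM. The annotated model of Trdc has 3407 non-coding of 3865 merged exon bases, and that of Trac has 3 of 413, so these chains were not set against each other per length. Most other markers of alpha beta T cells were lower. Cd6, a surface receptor of T cells, had 63.8, 91.1 and 138 CPM. Cd8b1, the CD8 beta chain, had 17.5, 47.6 and 26.7 CPM, Cd4 2.98, 3.79 and 1.49 CPM, and Foxp3, the factor of regulatory T cells, at most 0.522 CPM. Cd5 and Cd28, a brake and a costimulator of conventional T cells, had 2.13, 1.48 and 0.878 CPM and 1.67, 1.69 and 0.649 CPM. The ratio of Cd8a to Cd8b1 per kilobase was 60.7, 16.7 and 36.4, so the alpha chain exceeded the beta chain in every library by a variable factor. Whether the beta and alpha constant region transcripts come from other cells was not tested; the whole alpha beta T cell list summed to 1903, 1955 and 1558 CPM, and to 36.2, 65.4 and 43.0 CPM without Trbc1, Trbc2, Trac and Cd6, members left out after their values were seen. In bulk RNA, fewer cells of a type and less RNA per cell cannot be told apart, here and in the other lists.

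**Figure D2:**
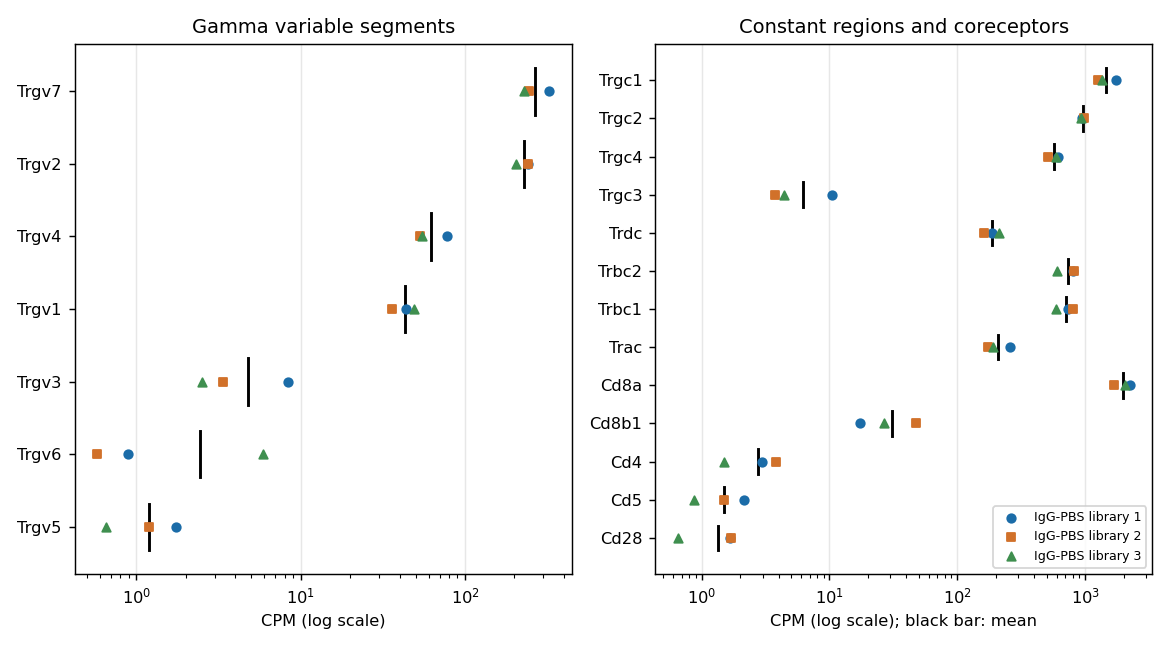
TCR gamma variable segments (left) and TCR constant regions with coreceptors (right) in CPM on log scales; points are the 3 IgG-PBS libraries and black bars their means. Trgv7 and Trgv2 lie above 200 CPM, Cd8a at 1681 to 2239 CPM lies far above Cd8b1 at 17.5 to 47.6 CPM.

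All 7 genes of the CD3 chains and their adaptors were expressed. Cd3g led with 2881, 2544 and 2665 CPM, ahead of Cd3e (1120 ± 190 CPM) and Cd3d (655 ± 4.81 CPM). Cd247, the zeta chain that carries most signalling motifs of the TCR in other T cells, had 331 ± 10.8 CPM. Fcer1g, the Fc receptor gamma chain, which can stand in for zeta in mouse intraepithelial lymphocytes, had 754 ± 84.4 CPM. Per kilobase Fcer1g exceeded Cd247 by 15.7, 13.0 and 13.1 times. These factors depend on the annotated exon lengths, and before scaling to length the means were 754 against 331 CPM. Tyrobp and Hcst, adaptors of natural killer receptors, had 815 ± 92.3 and 179 ± 1.13 CPM. Of the 30 proximal signalling genes 29 were expressed, led by the kinase gene Lck (1969 ± 352 CPM), the adaptor Sh2d2a (1434 ± 224), the phosphatases Ptpn22 (786 ± 102) and Ptpn6, and the kinases Zap70 (407 ± 71.9) and Txk (358 ± 65.1). Ptpn6 was the uneven one, with 984, 293 and 877 CPM. Syk, the kinase that takes the place of Zap70 in B cells, was the member not expressed, at 0.194, 0.784 and 0.115 CPM.

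Cytotoxic granule genes took 4.68% of all counts, with 45190, 50653 and 44690 CPM summed over the 22 members analysed here, of which 20 were expressed. The sequences just ahead of the annotated start of 4 of them are shown because these genes, 2 granzymes, a granule membrane protein and perforin, serve one function and differ widely in level. Prf1 was chosen after its values were seen. Each is 250 bases, 5′ to 3′ on the gene's strand, from RefSeq on GRCm38.p6: Gzma chr13:113100982-113101231 (minus strand), Gzmb chr14:56262335-56262584 (minus strand), Nkg7 chr7:43436888-43437137 (plus strand) and Prf1 chr10:61297586-61297835 (plus strand). Capitals mark the letters searched on both strands, TGTGGT or ACCACA (the core bound by RUNX factors) and AGGTGT or ACACCT (the core bound by T-box factors).
Gzma: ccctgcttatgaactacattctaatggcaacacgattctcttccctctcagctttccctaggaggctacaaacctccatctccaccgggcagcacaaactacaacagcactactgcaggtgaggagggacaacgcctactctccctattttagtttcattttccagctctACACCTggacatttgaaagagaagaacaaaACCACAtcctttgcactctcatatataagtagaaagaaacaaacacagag
Gzmb: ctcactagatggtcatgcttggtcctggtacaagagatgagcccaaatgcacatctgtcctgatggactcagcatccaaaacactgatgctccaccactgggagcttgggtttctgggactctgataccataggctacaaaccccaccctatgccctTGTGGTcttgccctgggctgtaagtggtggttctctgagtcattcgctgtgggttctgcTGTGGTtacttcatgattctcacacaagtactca
Nkg7: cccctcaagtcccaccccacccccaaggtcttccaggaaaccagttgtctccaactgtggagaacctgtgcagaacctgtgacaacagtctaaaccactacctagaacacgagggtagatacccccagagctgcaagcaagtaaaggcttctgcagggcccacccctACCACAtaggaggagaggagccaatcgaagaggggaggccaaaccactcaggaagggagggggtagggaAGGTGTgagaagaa
Prf1: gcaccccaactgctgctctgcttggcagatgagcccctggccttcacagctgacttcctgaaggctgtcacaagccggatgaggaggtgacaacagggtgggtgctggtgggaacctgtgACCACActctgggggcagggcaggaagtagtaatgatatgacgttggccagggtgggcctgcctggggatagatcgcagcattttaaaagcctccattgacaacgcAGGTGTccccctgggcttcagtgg
The RUNX letters occurred in all 4 windows, at 50 bases before the start in Gzma, 93 and 34 in Gzmb, 83 in Nkg7 and 130 in Prf1, and in 14.0% of 32851 windows of the same length. The T-box letters occurred in Gzma, Nkg7 and Prf1, at 80, 14 and 24 bases before the start, and in 11.8% of all windows. The exact letters TATAAA or TTTATA were in none of the 4 and in 12.4% of all windows; other forms of the TATA box were not searched. A match is a run of letters and no measurement of binding.

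Within the granule, Gzma and Gzmb lay far from the pore former. Gzma exceeded Gzmb 3.06, 3.57 and 3.06 times per kilobase. Prf1, perforin, by which granzymes enter the target cell, held 189, 247 and 233 CPM, so that Gzmb exceeded Prf1 103, 82.8 and 82.7 times per kilobase. The gap between Gzma or Gzmb and perforin was thus present in each of the 3 libraries. It did not hold for all granzymes. In CPM per kilobase Gzmk stood at 129 ± 22.4 and Gzmc at 7.34 ± 0.543, beside 86.2 ± 11.7 for Prf1. Nkg7, a membrane protein needed for granule release, had 3403 ± 368 CPM, Ctsw, a cathepsin of killer cells, 1401 ± 135, Srgn, the proteoglycan that packs granules, 1293 ± 165, Ctsc, which activates granzymes, 1143 ± 160, Ctsd 1044 ± 113 and Fasl, the death ligand, 1013 ± 130 CPM. Gzmm and Gzmf were below 1 CPM. Of 7 serpins, a family whose members inhibit granzymes and other proteases, 6 were expressed. Serpina3g (611, 1292 and 813 CPM), Serpinb6b (271 ± 32.5 CPM) and Serpinb9, the inhibitor of granzyme B (229 ± 23.7 CPM), led them. All 7 serpins were highest in library 2.

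Natural killer and inhibitory receptors were expressed unevenly. Of 28 natural killer receptors analysed here 23 (82.1%) were expressed, but only 5 reached 100 CPM, namely Cd96 (847 ± 5.28), Cd160 (965, 528 and 757), Cd244a (833, 509 and 667), Klrd1 (666 ± 31.8), which encodes CD94, and Slamf7 (140 ± 9.77 CPM). The lectin receptors Klrh1 (94.2 ± 12.6 CPM) and Klrb1a (89.3 ± 4.55 CPM) followed. Ncr1, a receptor of natural killer cells proper, was at 0.116, 0.0825 and 0.0764 CPM, at or below the floor. Members of the Klra family share sequence, and their levels are uncertain. Of 18 inhibitory receptors and regulators 16 were expressed. Beside Cd160 and Cd244a these were led by Cd200r1 (433 ± 75.1), Vsir (393 ± 45.3), Ctla4 (165 ± 31.8), Lilrb4a (163 ± 57.5), Tigit (133 ± 15.5) and Tox, a nuclear factor (128 ± 20.3 CPM). Per kilobase, neighbours from Cd160 down to Vsir overlapped, so these libraries give no order between neighbours. In the TNF receptor family, Tnfrsf1b, a receptor of TNF, led with 868 ± 19.0 CPM, followed by Tnfrsf9 (189, 197 and 304 CPM), Tnfrsf18 (229 ± 9.99) and Cd27 (117 ± 23.7 CPM), while Tnfrsf25 was at 0.194, 0 and 0 CPM.

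Genes listed for adhesion and retention in the gut were high and those listed for egress and recirculation were low. The 26 genes of the first list summed to 18644, 17526 and 16885 CPM, with 24 expressed. The 9 genes of egress and recirculation summed to 131, 167 and 168 CPM, with 8 expressed. Because the lists differ in size, the median member is also given, at 205 CPM in the first and 6.26 CPM in the second. Both lists were chosen with earlier results known, so the gap between them is no finding about either function. Rgs1, a brake on chemokine receptor signalling, alone held 10294, 9722 and 8266 CPM of the first sum. That list also holds Cdh1 and Epcam, which are described below among the enterocyte markers. Itgb7, the partner of Itgae, had 937 ± 110 CPM, Cd69, which holds lymphocytes in tissue, 824 ± 62.7, the chemokine receptor Cxcr6 687 ± 70.9, Rgs2 683 ± 22.7, Jaml, a ligand of an epithelial junction protein, 521 ± 35.7 and Itgb2 502 ± 38.8 CPM. Per kilobase Itgae and Cd69 overlapped, as did Cxcr6 and Itgb7. The egress and recirculation list was led by Il7r (53.9 ± 14.0 CPM), Tcf7 (51.6 ± 1.21) and S1pr4 (28.8 ± 4.60). Il7r is also on the cytokine receptor list and Tcf7 on the lineage factor list. Ccr7, the lymph node homing receptor, had 6.92 ± 1.41 CPM and Klf2 3.80 ± 1.32. S1pr1, the receptor that guides lymphocytes out of tissue, had 2.81 ± 0.430 CPM. S1pr5 was at most at 0.0412 CPM.

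Of 40 lineage transcription factors 35 (87.5%) were expressed, beside 61.2% of all genes. Id2, an inhibitor of E proteins, held 1155, 1304 and 1024 CPM, Litaf 1072, 1150 and 1068 CPM and Ets1 1105, 1046 and 890 CPM. Bhlhe40 followed with 520 ± 17.9, Ikzf3 with 392 ± 72.0, Tbx21, the T-box factor T-bet, with 294, 275 and 275, Ikzf2 with 281 ± 32.7 and Runx3, which drives CD8 lineage genes, with 257 ± 53.9 CPM. In CPM per kilobase Id2 (476 ± 57.5) and Litaf (459 ± 19.4) overlapped and both lay above Ets1 (200 ± 21.9), which lay above Bhlhe40 (164 ± 5.65). Some other listed factors, among them relatives of those above, were lower. Tbx21 exceeded the related Eomes 282, 230 and 345 times per kilobase, Eomes being at 1.55, 1.77 and 1.18 CPM. Zfp683, a residency factor also called Hobit, was at 1.39, 0.330 and 1.15 CPM, and Sox13 at 0.0775, 0.165 and 0 CPM. Runx3 exceeded Runx1 16.6, 10.9 and 17.4 times per kilobase. The aryl hydrocarbon receptor, which senses dietary ligands in the gut, was measured with its pathway, of which 7 of 8 genes were expressed: Ahr 75.5 ± 2.83, its partner Arnt 57.9 ± 3.43 and its targets Tiparp 213 ± 18.4 and Ahrr 35.7 ± 8.22 CPM. Nqo1, a target in liver, was at 0.435 ± 0.115 CPM.

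All 31 early response genes were expressed, and they summed to 29552, 25887 and 28451 CPM. Junb, Fos (1811, 1407 and 1441 CPM), Jun (1792, 1419 and 1597 CPM), Tnfaip3, an inhibitor of NF-kappaB (2299 ± 199 CPM), and the antiproliferative Btg1 (2212 ± 83.5) and Btg2 (2205 ± 115 CPM) were among the leading 50 genes. The heat shock gene Hspa1b had 2544, 1469 and 3138 CPM and Hspa8 2734 ± 366 CPM. Hspa1a, its near copy, had 1613, 901 and 2047 CPM. Both were lowest in library 2. Such genes are known to be switched on by tissue dissociation and cell sorting as well as by receptor signals, and which of these gave the levels here was not tested.

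**Figure D3:**
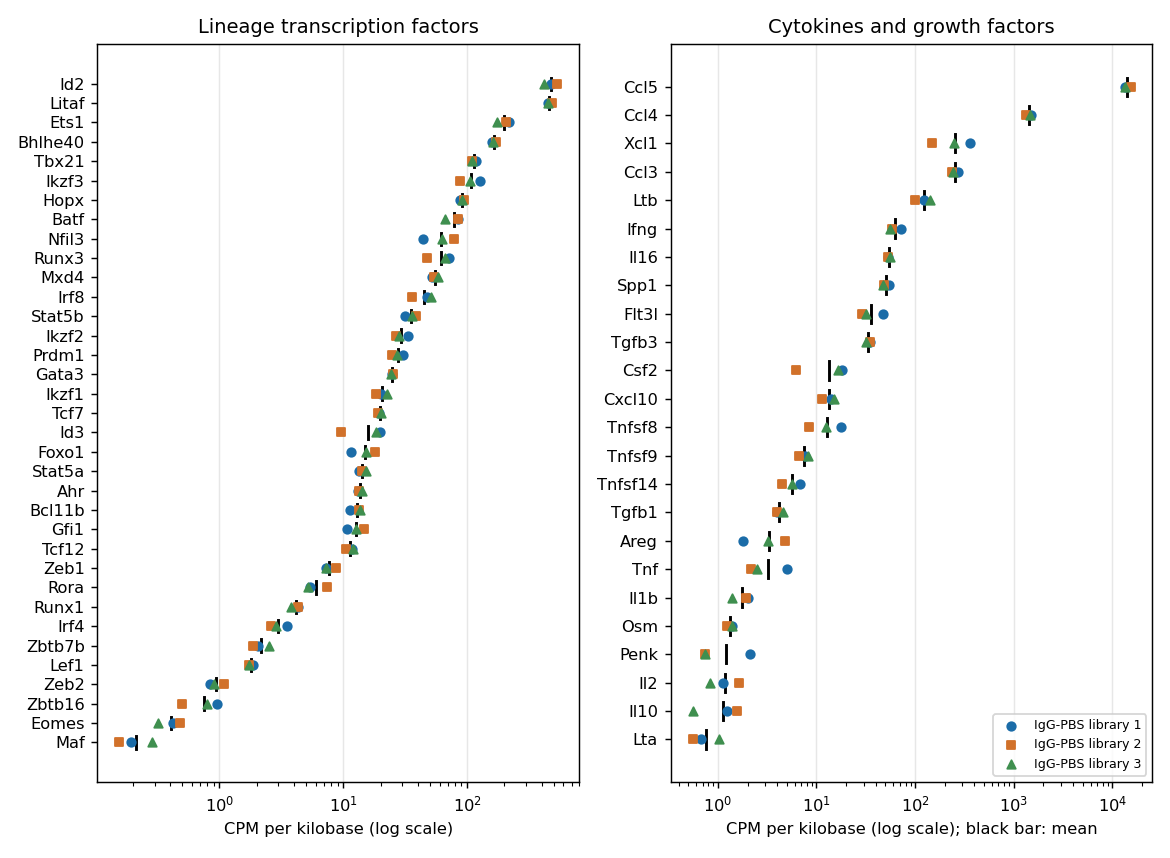
Lineage transcription factors (left, 35 expressed of 40) and cytokines and growth factors (right, 24 expressed of 39), as CPM per kilobase of merged exons on log scales; points are the 3 IgG-PBS libraries and black bars their means. Id2 and Litaf lead the factors at 476 and 459 CPM per kilobase and Ccl5 stands at 14057, above Ccl4 at 1424.

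The cytokine list was dominated by one chemokine. Its 39 members analysed here summed to 9543, 10097 and 9296 CPM, and 24 (61.5%) were expressed, a share near the 61.2% of all genes. Ccl5, which attracts T cells and monocytes, alone held 7201, 8129 and 7105 CPM. Ccl4 and Ccl3, inflammatory chemokines of the same family, had 940 ± 51.7 and 193 ± 12.8 CPM, and Xcl1, which attracts cross-presenting dendritic cells, 189, 76.9 and 130 CPM. Il16 had 288 ± 10.8, Ltb 144 ± 24.4, Tgfb3 117, 118 and 107 and Spp1 82.7 ± 6.11 CPM. In CPM per kilobase Ccl5 lay above Ccl4, and Ccl4 above Xcl1 and Ccl3, which overlapped. Ifng, the type II interferon, named after its values were seen, had 87.9, 70.9 and 66.5 CPM, and Ccl5 exceeded it 186, 260 and 242 times per kilobase. The cytokines that define other helper lineages were at the floor or near it, with Il17a at 0.0775, 0 and 0.0764 CPM, Il17f at 0.158 CPM, Il22 at 0.0775, 0 and 0 CPM, Il4 at 0.426, 0.742 and 0.0382 CPM and Il21 at 0.131 CPM on average. Fgf7, a factor of epithelial repair, averaged 0.210 CPM and Igf1 0.0901 CPM.

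Receptors for cytokines included the beta and gamma chains that serve interleukin 15 at high level. Of 30 genes 23 were expressed. Il2rb held 1332, 1148 and 1539 CPM, Il2rg 1117, 809 and 1022 CPM and Ifngr1 1166, 1445 and 1179 CPM. Il21r followed with 842 ± 49.6, Il4ra with 235 ± 33.1, Tgfbr2, the receptor of TGF-beta, with 221 ± 25.8, Il27ra with 130 ± 32.4 and Il12rb1 with 126 ± 28.7 CPM. Il2ra, the high affinity interleukin 2 chain, had 2.69 CPM, and Il2rb exceeded it 572, 412 and 999 times per kilobase. Il2rb exceeded Il7r 29.1, 15.7 and 20.1 times per kilobase. Il23r was at 0.118 and Il1r1 at 0.107 CPM, while Il22ra1, an epithelial receptor, was listed at 0 in all 3. The receptor of type I interferons, the agent of the other arms of the study, was expressed, with Ifnar1 at 125, 123 and 102 CPM and Ifnar2 at 87.3, 88.1 and 88.1 CPM, both named after their values were seen.

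Interferon signalling genes were expressed, and interferon-stimulated effectors ranged widely in level. Of 26 genes 24 were expressed. Their sum, at 3295, 3260 and 3285 CPM, had the lowest coefficient of variation of the 32 list sums. Single members were less even: the median coefficient of the expressed members was 11.6%, above the 6.32% of the CD3 and adaptor list. Stat3 (640 ± 88.3), Jak1 (598 ± 23.7), Irf1 (364 ± 38.4), Jak3 (271 ± 17.2), Stat4 (226 ± 12.8), Irf7 (145 ± 17.6) and Tyk2 (129 ± 26.9 CPM) were among its leading members, that is kinases and transcription factors of cytokine signalling. Among interferon-stimulated effectors, Oas1a had 60.8, 65.1 and 73.6 CPM, Isg15 45.3, 36.3 and 41.1 CPM, Bst2 27.2, 24.4 and 24.6 CPM and Ifi27l2a 20.5, 24.0 and 12.9 CPM. The effectors Mx1 (0.814, 1.28 and 1.99 CPM), Mx2 (0.262 CPM) and Oas2 (0.102 CPM) and the feedback protease Usp18 (2.75, 1.44 and 2.75 CPM) were lower, and Mx2 and Oas2 were the members not expressed. In CPM per kilobase Isg15 stood at 54.1 ± 5.98 and Mx1 at 0.401 ± 0.174. Class I presentation took 2.49% of counts, with 17 of 18 genes expressed. After H2-D1 and H2-K1 came B2m, the light chain, at 2848, 2944 and 3056 CPM. H2-Q7, H2-Q6 (1376 ± 177), H2-T23 (920 ± 60.6), the immunoproteasome subunit Psmb8 (838 ± 81.4) and Tapbp (761 ± 99.0 CPM) followed. H2-T3, the nonclassical molecule of intestinal epithelium that binds CD8 alpha homodimers, was at 0.0775, 1.15 and 1.45 CPM.

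Growth, survival and metabolism genes completed the picture. All 22 cell cycle genes were expressed, but Ccnd2, a cyclin of early G1, with 869, 693 and 1119 CPM, made up much of their sum of 1876, 1689 and 2118 CPM. Ccnd3 (238 ± 34.1), Mcm6 (172 ± 6.45), Pcna (96.8 ± 5.30) and Mcm5 (90.0 ± 5.06 CPM) followed, and 16 of the 22 reached 10 CPM. All 14 genes of the BCL2 family were expressed, with Bcl2, the survival factor, at 677 ± 35.4, Bcl2a1b at 299 ± 66.5, Bcl2l11, the death-promoting BIM, at 165, 207 and 171, Bax at 142 ± 20.8 and Mcl1 at 134 ± 11.1 CPM. Per kilobase Bcl2 exceeded Bcl2l1, which encodes BCL-XL, 5.94, 5.40 and 6.05 times. Bcl2a1b and Bcl2a1d are near copies and uncertain. Of 27 glycolysis and lipid genes 25 were expressed, led by Ldha (990 ± 136), Pkm (654 ± 70.5), Aldoa (545 ± 43.4), Acot7 (418 ± 58.7) and Dgat1, which makes triglycerides (278, 347 and 219 CPM), whereas Dgat2 (0.949 CPM) and Scd1 (0.0936 CPM) were below 1 CPM.

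Traces of other cells were small in sum, and those of epithelium were uneven between the libraries. In the alpha beta T, B and plasma, myeloid, and innate lymphoid lists the highest sum was 1.21 to 1.41 times the lowest. Secretory epithelium markers, those of goblet, Paneth, tuft and endocrine cells, summed to 158, 897 and 705 CPM, and 19 of 21 were expressed. Defa24, a Paneth cell defensin, had 35.3, 247 and 201 CPM, Lyz1, Paneth cell lysozyme, 7.56, 144 and 55.1 CPM, Itln1 15.2, 128 and 124 CPM and Clca1, a goblet cell product, 2.94, 35.4 and 32.6 CPM. Each of these was lowest in library 1. The 26 defensin genes summed to 79.5, 639 and 476 CPM, and reads among their near copies may be split. Of the 53 genes with a mean of at least 10 CPM and a coefficient of variation over 50%, 48 were lowest in library 1, and 34 were highest in library 2, 17 in library 3 and 2 in library 1. How many of all 8941 genes of at least 10 CPM were lowest or highest in each library was not counted. The 53 included 16 genes of the epithelial marker lists, 9 defensins, some of them also on those lists, and 4 mitochondrial transcripts. The most uneven were Lyz1, Defa20, Defa22, Apoa1, Mptx2, Defa2, Trbv16, mt-Nd3, Xlr3b, Clca1, Agr2 and Defa23, with coefficients of 74.5% to 100%. Xlr3b, an X-linked gene, ran against the rest, with 22.05, 35.4 and 4.01 CPM.

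Among absorptive enterocyte markers, a pair of junction proteins carried most of the level. The list summed to 476, 583 and 768 CPM, of which Cdh1, E-cadherin, made 294, 347 and 425 CPM and Epcam 124, 139 and 132 CPM. Without these, which were left out after their values were seen, the other 25 summed to 57.8, 97.5 and 211 CPM. Library 3 was highest for 23 of the 27 markers. Krt8, an epithelial keratin, had 7.44, 24.3 and 38.3 CPM, Krt19 4.11, 10.8 and 20.4 CPM and Apoa1, a lipoprotein of absorptive cells, 4.42, 5.32 and 20.6 CPM. Cdh1 exceeded Krt8 17.5, 6.31 and 4.90 times per kilobase and Epcam exceeded it 15.9, 5.41 and 3.28 times, so neither kept a fixed ratio to the keratin. Epcam varied by 5.35% and Krt8 by 66.1% between the libraries. Btnl1 and Btnl6, the butyrophilin-like proteins by which enterocytes select Trgv7 cells, had 0.725 and 0.269 CPM. Cdh1 ranged from 294 to 425 CPM in IgG-PBS libraries and from 154 to 464 CPM in the other 10, and Epcam from 124 to 139 and from 120 to 165 CPM, with no test of either.

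Among lists of other immune cells, those of B and plasma cells and of innate lymphoid and natural killer cells were carried by few genes. In the B and plasma cell list, which summed to 591, 450 and 637 CPM, Ighm had 345, 219 and 354 CPM, Igha 129, 115 and 141 CPM and Cd79b 80.1, 72.0 and 94.5 CPM. Igkc, the kappa constant region, had 23.6, 31.8 and 27.8 CPM and Jchain, which links secreted antibodies, 11.8, 9.40 and 14.4 CPM, while Cd79a, the obligate partner of Cd79b in the B cell receptor, had 0, 0.330 and 0.420 CPM and Mzb1, a plasma cell chaperone, 0, 0.120 and 0.143 CPM. The 101 immunoglobulin variable segments summed to 24.8 ± 3.46 CPM. In the myeloid list Cst3, which many cells express, had 185 ± 23.1 of 348 ± 33.7 CPM. Without Cst3, left out after its values were seen, the other 18 genes summed to 145, 168 and 177 CPM, and 12 were expressed. Among them were the class II genes H2-Ab1 (37.3, 39.5 and 43.2 CPM) and H2-Eb1 (28.0 ± 7.18 CPM), and Csf1r (2.59 ± 0.230 CPM). Cd74, H2-Aa, Cd68, Lyz2, Itgam, Xcr1, C1qa, C1qb and C1qc were expressed too. S100a8 and Flt3 were listed at 0, and Adgre1 had at most 0.542 CPM. Kit, the stem cell factor receptor of mast and innate lymphoid cells, had 143, 195 and 142 CPM, and Gata3 79.2 ± 1.42 CPM, beside Ncr1 and Il22 near the floor. Mcpt1 of mast cells was listed at 0 and Mcpt2 at most at 0.0382 CPM. The lists of mast cells, stroma with endothelium, and red blood cells summed to 1.41 ± 0.361, 1.92 ± 0.784 and 0.894 ± 0.682 CPM, and none of the 8 stromal and 5 red cell genes analysed here was expressed. What part cells of these types had in any level above was not tested.

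**Figure D4:**
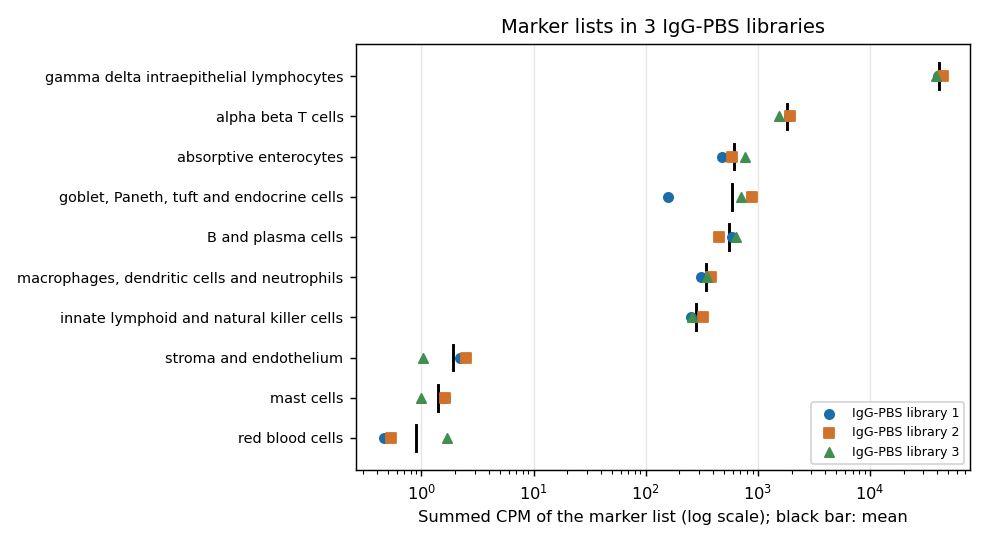
Summed CPM, on a log scale, of 10 marker lists in the 3 IgG-PBS libraries; points are libraries and black bars their means. The gamma delta intraepithelial list stands at 38994 to 44451 CPM, mostly Gzma and Gzmb, the secretory epithelium list spreads from 158 to 897 CPM with library 1 lowest, and stroma, mast cell and red cell lists lie below 3 CPM.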

How the data were processed

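Bulk RNA libraries of sorted gamma delta intraepithelial lymphocytes were made with an RNeasy kit and a SMART-Seq HT kit (full-length cDNA without molecular identifiers), per the labels' protocols. STAR 2.7.8a, Partek, DESeq2 and the build mm39 are named by the submitters' processing notes without a role; the counting tool and its strand setting are not given in the sources used here, so overlapping and antisense genes cannot be told apart. The authors deposited estimated counts per gene, not scaled between libraries, of which 38.2% were not whole in the IgG-PBS libraries. The deposited second table holds a signal, those counts divided by 1 factor per library (1.11, 1.02 and 1.10) for 11281 genes. It served only as an alternative.

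CPM is the estimated count over the library total. Means, SDs and ranks were taken over 3 libraries with Python 3.11.15 and pandas 2.3.3, and no contrast was fitted. Lengths were merged exons of GENCODE M21, matched by Ensembl identifier for 21021 of 21084 genes (99.7%). Promoters came from RefSeq, GRCm38.p6. Coordinates are mm39 as deposited. The libraries were checked for duplicates: their counts differed by chi-square values of 39.1 to 45.1 per degree of freedom. The calculations were tested on simulated data. Alternatives used trimmed mean of M values (TMM) factors from edgeR 4.0.16 (R 4.3.3), other totals and filters, and each library left out.

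The members, the 22 role lists and the 10 marker lists were chosen with earlier results of these data known. Of 575 listed symbols 539 were analysed, and some genes that the rule below names are not reported here. Named were the 30 genes leading by mean CPM, up to 8 leading members per list, members under 1 CPM that define another lineage, the 6 markers and the 12 genes of at least 10 CPM with the highest coefficient of variation. Prf1, Ifng, Ifnar1, Ifnar2, Il2ra, Runx1, Eomes, Hspa1a, Cd28, Csf1r, Mx1, Usp18, Isg15, Ifi27l2a, Oas1a, Bst2, Zfp683, Fgf7, Igf1, Trgv3, Trgv5 and Trgv6 were named after their values were seen.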

Additional observations from a re-analysis of the deposited data

How the results depend on the processing

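No paired analysis was possible because the values come from no comparison between groups and no test. With no filter, 20771 genes had a count against 12893 at a mean of at least 1 CPM. With totals over nuclear protein-coding genes, the 10 leading genes of each library took 10.2% of counts against 9.53%. Cytotoxic granule genes summed to 50301 against 46845 CPM and cytokines to 10358 against 9645 CPM. These shifts came from the smaller total alone. The median coefficient of variation was 10.98% among genes of at least 10 CPM, against 13.5%. Leaving out a library gave medians of 10.3% to 11.9%, on 2 values a gene, and 12849 to 12896 expressed genes. It gave 9.18% to 9.82% on the 10 leading genes of each library, granule sums of 44940 to 47922 CPM and cytokine sums of 9420 to 9820 CPM. Secretory epithelium markers averaged 801 CPM without library 1, 431 without library 2 and 527 without library 3, against 587 with all. Of 96 list sums under other scalings 18 moved by more than 1 SD. Most did so with totals over nuclear protein-coding genes, which raise every sum, so that lists of small SD moved. The second table, rescaled, moved 3, those of mast cells, stroma and red cells, to 0, because their genes are not among its 11281. The number 18 is therefore no measure of stability. With 3 libraries, leaving out 1 cannot move a mean by 1 SD, so that measure says nothing of stability. Of the leading 30 genes 19 were among the leading 30 per kilobase of merged exons. The alternative with median transcript lengths was chosen after seeing the data. Library totals of 24243111 to 26183710 put the limit for a count of 0 at 0.115 to 0.124 CPM, so genes near it cannot be ranked.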

Other observations

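Gene families outside the lists, chosen after their values were seen, filled further places near the top. The 9 genes of the Gimap cluster, 8 of them GTPases of the immunity-associated family that support lymphocyte survival, were all expressed and summed to 7132, 6844 and 6377 CPM, or 0.678% ± 0.0381 of counts. Gimap6 held 1763, 2193 and 1600 CPM, Gimap3 1697, 1574 and 1664 CPM and Gimap4 1676, 1348 and 1357 CPM. The other members lay between 38.8 CPM for Gimap1os, an antisense partner of the cluster, and 636 CPM for Gimap1. The Gimap genes share sequence, so their separate levels are uncertain.

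Genes marked lncRNA took a small share of the libraries, 1.28% ± 0.101 of counts. Of these genes 658 of 2212 were expressed, beside 12893 of 21084 (61.2%) of all genes. Pseudogenes made 3.34% ± 0.0811 of counts and protein-coding genes 94.1% ± 0.178. Malat1, a nuclear RNA, held 2802, 2473 and 2976 CPM and AW112010, a transcript of immune cells, 2793, 2389 and 2249 CPM. Per kilobase AW112010 stood at 3217 ± 367 and Malat1 at 394 ± 36.6 CPM, and their values did not overlap. The 93 cytosolic ribosomal protein genes made 1.56% ± 0.106 and the 15 mitochondrially encoded genes 0.866%, 0.946% and 1.73% of counts in libraries 1 to 3.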
